A study of Mus musculus with 24 samples.

Results

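Interferon-stimulated genes were followed through pressure overload and benzene inhalation in the mouse heart. The 41 genes were taken by symbol from the count table of 25229 gene symbols and fall into 32 type I style genes and 9 interferon-gamma GTPase genes. The type I style genes are Ifi44, Oasl1, Oasl2, Oas1a, Oas2, Oas3, Stat2, Irf1, Irf7, Irf9, Ifit1, Ifit2, Ifit3, Ifih1, Isg15, Usp18, Rsad2, Mx1, Mx2, Bst2, Ifitm3, Ifi27, Ifi35, Xaf1, Parp14, Dhx58, Trim25, Cmpk2, Zbp1, Rtp4, Eif2ak2 and Samd9l. The GTPase genes are Gbp2, Gbp3, Gbp6, Gbp7, Igtp, Irgm1, Irgm2, Tgtp2 and Iigp1. A filter on low counts passed 40 of the 41, that is 31 type I style and all 9 GTPase genes; Oas3, at 0 to 20 counts per library, did not pass. The poly-A RNA was that of male C57BL/6 mice, from septum and left ventricle, with 6 libraries in each of 4 groups. Every mouse was operated on: transverse aortic constriction (TAC), a banding of the aorta that puts the left ventricle under pressure, or sham surgery. After 1 week of recovery the mice inhaled benzene at 50 ppm or HEPA-filtered air over 6 weeks, on 5 days of each week and for 6 hours on each day. The groups are called Sham/Air, Sham/Benzene, TAC/Air and TAC/Benzene. The labels do not name the mouse behind each library, and p-values here speak only for the spread among these libraries, part of which may be technical.

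As background, type I interferons signal through the receptor chains IFNAR1 and IFNAR2 and a complex that holds STAT2 and IRF9 and binds a DNA element called the interferon-stimulated response element (ISRE). Interferon-gamma signals through IFNGR1 and IFNGR2 and acts on genes at another element, the gamma-activated site (GAS). The targets of both overlap. Antiviral effectors such as the Ifit, Oas and Mx genes are mainly known from the type I response. The guanylate-binding proteins (Gbp) and immunity-related GTPases (Irgm1, Irgm2, Igtp, Tgtp2, Iigp1) are mainly known from interferon-gamma. Effector GTPases such as Iigp1 load onto the vacuoles of intracellular pathogens, and regulatory ones such as Igtp guard the cell's own membranes. In the heart interferon-stimulated genes are expressed by cardiomyocytes, endothelial cells and macrophages. In bulk tissue fewer cells of a type and less RNA per cell cannot be told apart.

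The promoters show how the classes differ in sequence. RefSeq windows on GRCm38.p6, of 300 bases each with 250 of them before the transcript start, were matched for 30 of the 41 genes. No window was matched for Oas2, Usp18, Mx1, Mx2, Ifi27, Parp14, Dhx58, Zbp1, Rtp4, Gbp6 and Iigp1. In 24 of the 30 a window ran into the start of an annotated transcript on the gene's strand. Of the 30 genes 4 had more than 1 window, and a gene counted if any window matched. The ISRE core, searched as the letters GAAA, any 2 bases and GAAA again, was looked for on both strands. It was present in 7 of 7 GTPase genes and 11 of 23 type I style genes (47.8%) that had a window. It was present in 3.99% of the 27025 genes with a window. The letters TTCNNNGAA, the GAS core, were present in 4 of these 7 GTPase genes (57.1%) and 7 of these 23 type I style genes (30.4%). They were present in 9.55% of all genes with a window. Matches of the 2 motifs may overlap each other. A GAS core followed after 2 bases by an ISRE core was found in 5 of the 27025 genes (0.0185%). These were Igtp, Irgm2, Tgtp2, its near-identical copy Tgtp1, and Gm12185. The Igtp and Irgm2 windows, both on chromosome 11, are nearly identical around the 2 cores, so the 5 genes are not independent finds. In all, 7 windows are shown, chosen because they hold this arrangement (Igtp, Irgm2, Tgtp2), because the gene belongs to the GTPases that fell with TAC in benzene (Gbp3), or because they show ISRE cores of type I style genes with repeated or overlapping matches (Isg15, Ifit1, Oas1a). Each is the 150 bases before the transcript start, written 5′ to 3′ along the gene's strand, with matches to either motif in capitals.
Igtp (chr11:58199406-58199555, plus strand): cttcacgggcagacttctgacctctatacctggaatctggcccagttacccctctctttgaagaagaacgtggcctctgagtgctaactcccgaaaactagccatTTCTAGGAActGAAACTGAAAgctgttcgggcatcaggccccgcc
Irgm2 (chr11:58214827-58214976, plus strand): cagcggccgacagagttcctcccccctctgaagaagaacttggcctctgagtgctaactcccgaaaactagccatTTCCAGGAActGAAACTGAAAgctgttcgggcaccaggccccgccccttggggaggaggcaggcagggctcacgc
Tgtp2 (chr11:49064213-49064362, minus strand): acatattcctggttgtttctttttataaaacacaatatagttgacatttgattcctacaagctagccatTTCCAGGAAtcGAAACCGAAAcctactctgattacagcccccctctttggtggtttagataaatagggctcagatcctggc
Gbp3 (chr3:142559894-142560043, plus strand): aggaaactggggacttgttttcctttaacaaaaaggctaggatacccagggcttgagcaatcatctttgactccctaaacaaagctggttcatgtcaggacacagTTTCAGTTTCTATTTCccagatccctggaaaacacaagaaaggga
Isg15 (chr4:156200819-156200968, minus strand): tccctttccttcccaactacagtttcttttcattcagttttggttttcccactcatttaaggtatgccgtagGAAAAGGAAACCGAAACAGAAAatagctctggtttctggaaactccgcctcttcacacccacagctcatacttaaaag
Ifit1 (chr19:34640739-34640888, plus strand): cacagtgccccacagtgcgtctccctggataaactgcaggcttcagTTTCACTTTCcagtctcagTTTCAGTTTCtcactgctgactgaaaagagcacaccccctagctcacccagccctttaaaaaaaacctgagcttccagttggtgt
Oas1a (chr5:120907526-120907675, minus strand): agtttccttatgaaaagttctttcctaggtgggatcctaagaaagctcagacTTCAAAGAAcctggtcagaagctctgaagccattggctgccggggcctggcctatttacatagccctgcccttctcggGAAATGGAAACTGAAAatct
In Igtp the ISRE core began 34 bases before the start and the GAS core 45, in Irgm2 64 and 75, and in Tgtp2 70 and 81. Isg15 held 3 overlapping ISRE matches, Oas1a 2 overlapping matches 20 and 14 bases before the start, and Ifit1 2 separate ones. A match is a description of the letters, not a mapped binding site.

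Total counts ran from 4170660 to 14632231 per library. The smallest total was that of Sham/Air replicate 1, which stood apart: its Spearman correlation with the other libraries over the tested genes was 0.852 to 0.913, against 0.963 to 0.996 among the other 23. The surgery labels were checked with the load-induced gene Nppa, at 256 ± 50.7 CPM (counts per 1000000 counts of the library, SD, n = 6) in Sham/Air, 291 ± 68.6 in Sham/Benzene, 3609 ± 459 in TAC/Air and 4317 ± 271 in TAC/Benzene. Cardiomyocyte markers were abundant in every library and lower with TAC: over 7 genes the sum lay between 64710 and 85180 CPM in Sham/Air against 41480 and 55830 CPM in TAC/Air, and between 57900 and 74000 CPM in Sham/Benzene against 45250 and 53860 CPM in TAC/Benzene. Of these genes 5 were called lower with TAC in air and 4 in benzene, and 0 higher. Of all tested genes 7.35% and 7.97% were called lower.

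Among the 41 genes the levels differed widely within the type I style class and little among the GTPases. Scaled to CPM per kilobase of the longest annotated transcript, type I style levels ran from 0.106 for Oas3 to 134 for Ifitm3, a membrane protein that blocks viral entry, with a median of 5.23. The GTPase genes ran from 5.26 for Tgtp2 to 20.9 for Iigp1, with a median of 9.43. By group mean, 18 of 32 type I style genes were highest in TAC/Air and 19 were lowest in Sham/Air. Of the 9 GTPase genes, 8 were lowest in TAC/Benzene, the exception being Gbp6, and their highest group varied. Within a library, the median type I style gene stood at 0.16 to 0.23 (log2) relative to its 24-library mean in the 6 TAC/Air libraries and at -0.26 to -0.088 in the 6 Sham/Air libraries. The median GTPase gene stood at -0.26 to -0.14 in the 6 TAC/Benzene libraries. Sham/Air replicates 4 and 5 (-0.25 and -0.15) and Sham/Benzene replicate 4 (-0.22) lay inside that range. These medians are descriptions and carry no test, since the genes were chosen as a list.

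**Figure D1:**
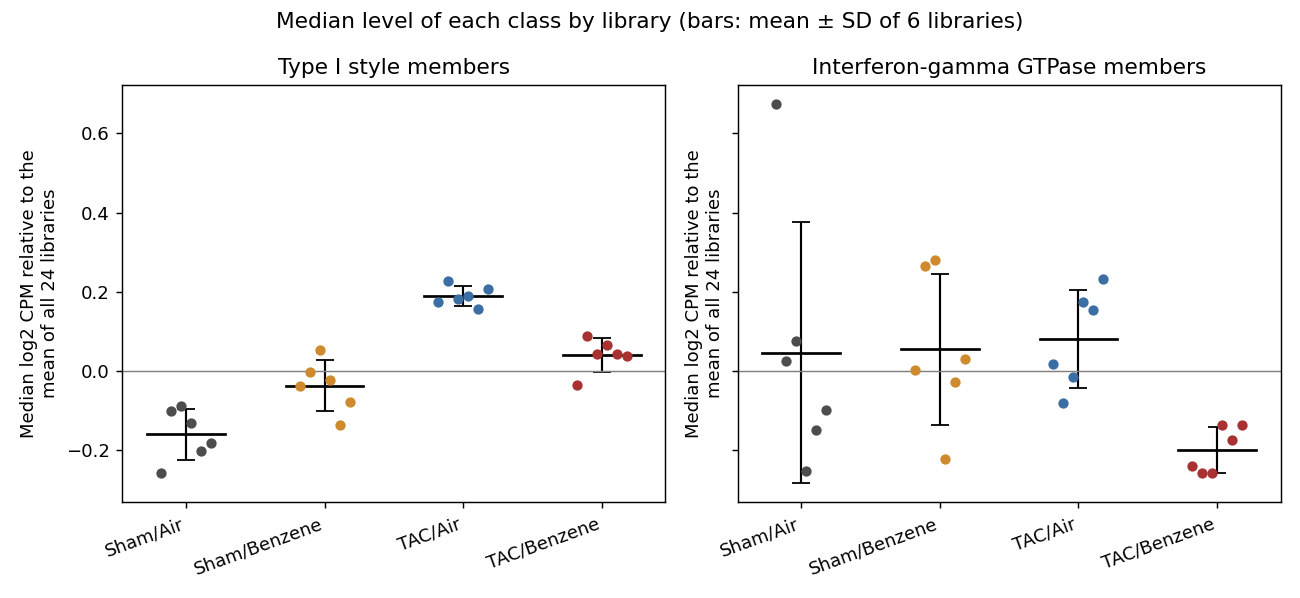
Median over each class of the tested genes' log2 CPM relative to the mean of the 24 libraries (y axis), for the 6 libraries of each group (points; horizontal bars are means, error bars SD). The type I style medians of TAC/Air all lie above those of the other groups. The GTPase medians of TAC/Benzene lie between -0.26 and -0.14, a range that also holds Sham/Air replicates 4 and 5 and Sham/Benzene replicate 4. The high Sham/Air point at 0.67 in the GTPase panel is replicate 1.

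Spread within Sham/Air depended on 1 library. The median coefficient of variation was 28.4% for both classes in Sham/Air, 18.6% (type I style) and 15.9% (GTPase) in Sham/Benzene, 14.4% and 9.87% in TAC/Air, and 10.6% and 8.06% in TAC/Benzene. Without replicate 1 the Sham/Air medians were 15.1% (type I style) and 11.2% (GTPase), below those of Sham/Benzene. Sham/Air replicate 1 held the extreme value of many genes: its median GTPase gene lay 0.64 (log2) above the group mean and 8 of 9 lay above it, while Igtp was lowest there. It was also highest for the long transcripts Samd9l, Parp14, Eif2ak2 and Ifih1 and lowest for the short transcripts Isg15 (1 count), Bst2, Ifitm3, Ifi27 and Ifi35. Length did not sort every gene. That library was lowest for Stat2 (4397 bases), Oas2 (3961), Irf9 (3869) and Irf7 (3240) and highest for Ifit3 (1745) and Rtp4 (1859).

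The first comparison was TAC against sham surgery in filtered air. Type I style genes rose: 10 of the 31 tested passed (adjusted p under 0.05, edgeR quasi-likelihood test with Benjamini-Hochberg adjustment over 13571 genes), all upward, while 8.81% of all tested genes were called higher and 7.35% lower. Of the GTPase genes 0 of 9 passed, and 0 of 9 had an unadjusted p below 0.05; DESeq2 called none of them, and limma-voom called 3 higher (Gbp2, Irgm2 and Tgtp2). The median log2 fold change was 0.35 over the type I style genes, with 25 positive and 6 negative, 0.00044 over the GTPases, and -0.013 over all tested genes. Oas1a and Stat2 had every TAC/Air library above every Sham/Air library, as 5.78% of all tested genes did, and 0 of 40 lay below in this way, as 3.71% of all did.

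Of the transcription factors of the pathway, Irf9, Stat2 and Irf7 rose. Irf9, the DNA-binding subunit of the complex with STAT2, ran from 17.3 through a median of 21.4 to 24.2 CPM in Sham/Air and from 23.7 through 27.2 to 30.2 CPM in TAC/Air. It rose by 0.35 ± 0.09 (log2, SE; adjusted p = 0.0050), and the groups overlapped only between 23.7 and 24.2 CPM. Stat2, its partner, ran from 13.6 through 20.3 to 23.1 CPM and from 24.2 through 26.3 to 28.1 CPM, without overlap, and rose by 0.38 ± 0.12 (adjusted p = 0.0267). Irf7, the factor that amplifies interferon production, ran from 5.97 through 11.3 to 12.98 CPM and from 11.1 through 16.9 to 21.996 CPM. It rose by 0.62 ± 0.17 (adjusted p = 0.0132), with TAC/Air replicate 5 alone inside the sham range. Irf1, a factor induced by both interferon types, was at 0.12 ± 0.16 and did not pass (adjusted p = 0.653).

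Sensors of foreign nucleic acid were called in part. Dhx58, which encodes the RNA sensor LGP2, ran from 1.14 through 2.29 to 3.74 CPM in Sham/Air and from 3.04 through 4.12 to 4.79 CPM in TAC/Air, and rose by 0.67 ± 0.21 (adjusted p = 0.0281). Zbp1, a sensor of Z-form nucleic acid that can trigger cell death, ran from 1.46 through 2.03 to 3.22 CPM and from 2.42 through 3.57 to 4.53 CPM, a rise of 0.69 ± 0.21 (adjusted p = 0.0220). The groups overlapped for both genes, which had few reads, at 4 to 66 counts per library for Dhx58 and 7 to 57 for Zbp1. Ifih1 (the RNA sensor MDA5) was at -0.02 ± 0.22 and Eif2ak2 (the RNA-activated kinase PKR) at -0.23 ± 0.21, and neither passed. Sham/Air replicate 1 was the highest sham library for both, at 48.0 CPM (next 24.1) for Ifih1 and 61.4 CPM (next 25.2) for Eif2ak2. Without that library Ifih1 was at 0.29 ± 0.14 and Eif2ak2 at 0.12 ± 0.12, and neither passed (adjusted p = 0.156 and 0.544). With all libraries, limma-voom called Ifih1 higher (0.38, adjusted p = 0.0307) and did not call Eif2ak2.

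Antiviral effectors rose in part. Oas1a, a 2′-5′ oligoadenylate synthetase that activates RNase L, ran from 2.27 through 3.74 to 4.20 CPM in Sham/Air and from 4.64 through 5.13 to 6.17 CPM in TAC/Air, without overlap, and rose by 0.53 ± 0.16 (adjusted p = 0.0230). Its relative Oasl2 ran from 10.3 through 10.6 to 15.9 CPM and from 13.9 through 15.97 to 17.6 CPM and rose by 0.42 ± 0.12 (adjusted p = 0.0127); the 15.9 CPM was Sham/Air replicate 1. Oasl1 (0.50 ± 0.20, adjusted p = 0.0864) and Oas2 (0.18 ± 0.20, adjusted p = 0.594) did not pass. Reads of the Oas1 copies may be split or lost, so the level of Oas1a is uncertain.

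Ifitm3, the most abundant of the 41 per length, ran from 33.0 through 80.4 to 91.6 CPM in Sham/Air and from 87.4 through 106 to 112 CPM in TAC/Air and rose by 0.47 ± 0.15 (adjusted p = 0.0260). Sham/Air replicate 1 was the 33.0, and the next library was at 78.0 CPM. Ifi44, an interferon-induced protein of the cytoplasm, ran from 3.86 through 4.74 to 8.52 CPM and from 5.50 through 8.26 to 10.7 CPM and rose by 0.72 ± 0.18 (adjusted p = 0.00524). Here replicate 1 was the high sham library, and the others reached 5.48 CPM, below every TAC/Air library. Mx1, a dynamin-like GTPase against influenza viruses whose allele in C57BL/6 lacks coding exons, was scarce, at 0.163 through 0.835 to 1.42 CPM and 0.943 through 1.85 to 2.57 CPM. Its rise of 1.19 ± 0.41 (adjusted p = 0.0441) rests on 1 to 34 counts per library. Of the other effectors, Isg15 (0.61 ± 0.29), Bst2 (0.55 ± 0.27), Ifit3 (0.36 ± 0.18), Ifit1 (0.33 ± 0.18) and Ifit2 (0.32 ± 0.18) did not pass.

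The calls in air were close to the threshold. When only the 2 groups were fitted, Oas1a alone remained called, and the other 9 had adjusted p from 0.0544 to 0.153 with fold changes of the same direction. With 1 library left out, Irf9, Ifi44, Oasl2 and Irf7 stayed called in 24 of 24 fits, while Mx1 lost its call in 13, Dhx58 in 6, Zbp1 in 3, and Oas1a, Ifitm3 and Stat2 in 2 each, with adjusted p up to 0.0985. With offsets for GC content and transcript length 16 of 40 were called, all higher, while over all tested genes the split of 1195 higher and 998 lower became 1625 and 2125.

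**Figure D2:**
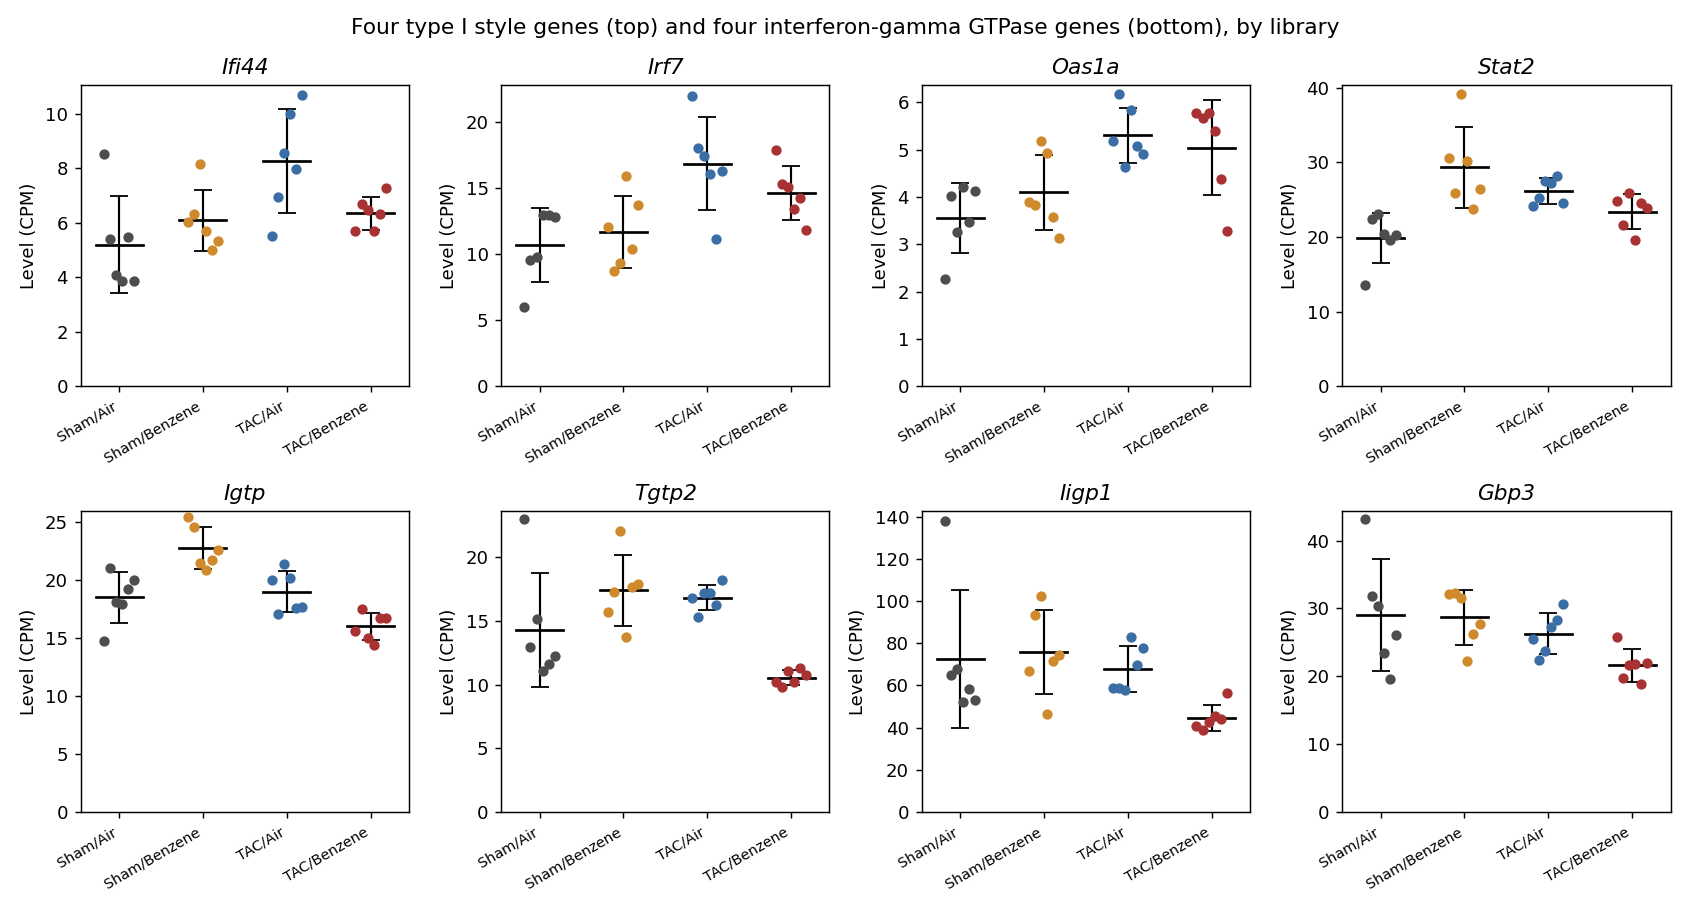
CPM in each of the 24 libraries (points) by group for 4 type I style genes (top) and 4 GTPase genes (bottom), with the group mean (bar) and SD (error bar, n = 6). Stat2 and Oas1a lie higher in every TAC/Air library than in any Sham/Air library, and Igtp and Tgtp2 lie lower in every TAC/Benzene library than in any Sham/Benzene library.

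The second comparison was TAC against sham surgery in mice that inhaled benzene, which shares no library with the first. Here GTPase genes fell: 4 of 9 passed, all downward, while 7.97% of all tested genes were called lower and 8.67% higher. Of the type I style genes 0 of 31 passed; 6 had an unadjusted p below 0.05, DESeq2 called 2 of the 31, Irf9 and Stat2, lower, and limma-voom called Ifit2, Ifit3, Ifitm3, Oas1a and Zbp1 higher and Irf9 and Cmpk2 lower. The median log2 fold change was -0.29 over the GTPases, with 8 of 9 negative, 0.04 over the type I style genes and -0.0045 over all tested genes. Igtp and Tgtp2 had every TAC/Benzene library below every Sham/Benzene library, as did Irf9 (6.31% of all tested genes), and Ifit3 had every one above (7.62%).

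Igtp, also known as Irgm3, a regulatory GTPase that guards the cell's own membranes, ran from 20.8 through 22.1 to 25.4 CPM in Sham/Benzene and from 14.4 through 16.2 to 17.5 CPM in TAC/Benzene. It fell by 0.51 ± 0.09 on the log2 scale (adjusted p = 0.00017). Tgtp2, an effector GTPase first described in T cells, ran from 13.8 through 17.5 to 22.1 CPM and from 9.80 through 10.5 to 11.3 CPM with no overlap. It fell by 0.72 ± 0.13 on the log2 scale (adjusted p = 0.00028). Its near-identical copy Tgtp1, which is not one of the 41, was at -0.68 ± 0.18 (adjusted p = 0.00801), and reads can be split between the copies, so neither is an independent measure of the other. Iigp1 (Irga6), an effector that loads onto parasite vacuoles, ran from 46.3 through 73.0 to 102 CPM and from 38.8 through 43.3 to 56.4 CPM. It fell by 0.76 ± 0.20 on the log2 scale (adjusted p = 0.00797), with 1 Sham/Benzene library, replicate 4, inside the TAC range.

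Gbp3, a guanylate-binding protein, ran from 22.2 through 29.7 to 32.4 CPM in Sham/Benzene and from 18.8 through 21.8 to 25.8 CPM in TAC/Benzene and fell by 0.41 ± 0.14 on the log2 scale (adjusted p = 0.0489). Irgm1, another regulatory GTPase, was next by p and did not pass at -0.26 ± 0.09 (adjusted p = 0.0542). Gbp7 (-0.29 ± 0.20), Irgm2 (-0.14 ± 0.09), Gbp2 (-0.02 ± 0.16) and Gbp6 (0.06 ± 0.15) did not pass either, and Gbp genes are similar enough that reads may be shared. Igtp, Tgtp2 and Iigp1 stayed called whichever library was left out, with adjusted p of at most 0.0239, whereas Gbp3 lost its call in 15 of 24 such fits (adjusted p up to 0.103) and with relative log expression size factors (0.0514). The split of 0 higher and 4 lower became 3 and 8 with offsets for GC content and transcript length, under which the share of all tested genes called went from 16.6% to 26.9%.

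The 10 type I style genes called in air had lower estimates in benzene, of the opposite sign for Irf9 and Stat2, and none was called there. They were picked by their calls in air, which by itself favours lower estimates in benzene, so this is no test of a difference. The log2 fold change was 0.07 ± 0.17 for Ifi44, 0.14 ± 0.14 for Ifitm3, 0.20 ± 0.37 for Mx1, 0.28 ± 0.20 for Dhx58 and 0.32 ± 0.17 for Irf7, and it was 0.26 ± 0.12 for Oasl2, 0.30 ± 0.15 for Oas1a and 0.49 ± 0.21 for Zbp1. It was -0.24 ± 0.08 for Irf9 (adjusted p = 0.0546) and -0.32 ± 0.12 for Stat2 (adjusted p = 0.0560). Ifit3 was at 0.48 ± 0.18 (adjusted p = 0.0782), with 13.9 through 17.8 to 19.1 CPM in Sham/Benzene and 19.8 through 24.3 to 26.3 CPM in TAC/Benzene. Over all 31 tested type I style genes, 24 had a lower estimate in benzene than in air and 7 a higher one, Ifit2 and Ifit3 among these. Whether an estimate differed between air and benzene is the question of the interaction.

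**Figure D3:**
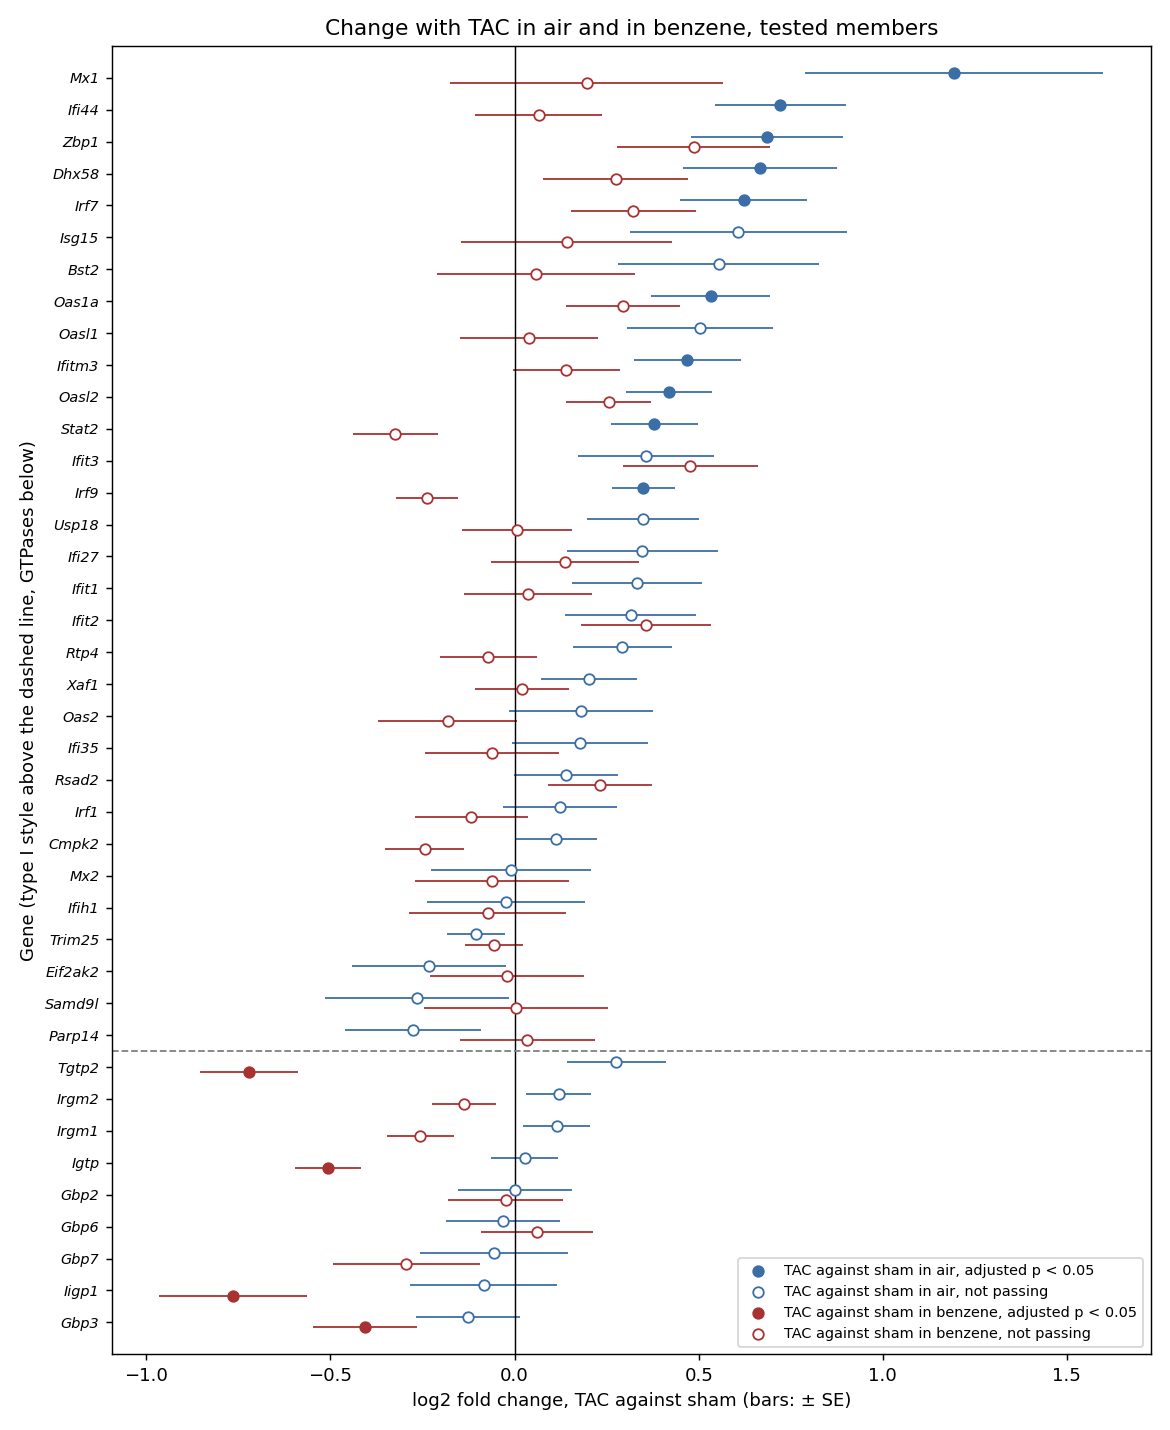
Log2 fold change of TAC against sham (x axis, ± SE) for each of the 40 tested genes (y axis), in air (blue) and in benzene (red); filled points passed adjusted p under 0.05. The 10 filled blue points are type I style genes right of 0, and the 4 filled red points are GTPase genes left of 0.

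The interaction asked whether the change with TAC differed between benzene and air, as TAC in benzene minus TAC in air. Of 40 genes, 2 passed, both negative, among 0.103% of all tested genes called negative and 0.0663% called positive. Tgtp2 was at -0.998 ± 0.19 (log2, SE; adjusted p = 0.0166): its estimate was 0.28 ± 0.14 in air and -0.72 ± 0.13 in benzene. Irf9 was at -0.59 ± 0.12 (adjusted p = 0.0320), from 0.35 ± 0.09 in air and -0.24 ± 0.08 in benzene. Tgtp2 stayed called in all 24 fits that left out 1 library, with adjusted p up to 0.0461, and Irf9 lost its call in 16 of them, with adjusted p up to 0.0868. Stat2 (-0.70 ± 0.17, adjusted p = 0.105), Igtp (-0.53 ± 0.13, adjusted p = 0.120) and Irgm1 (-0.37 ± 0.13, adjusted p = 0.661) did not pass in edgeR. Stat2 and Igtp passed in DESeq2 (adjusted p = 0.0061 and 0.0134), in limma-voom (0.0331 and 0.0337) and with GC and length offsets (0.0224 and 0.0479), which called 0.42%, 0.685% and 0.398% of all tested genes. Iigp1 passed in limma-voom (0.0032) and with the offsets (0.0057). The median was -0.24 over the type I style genes, with 24 of 31 negative, -0.28 over the GTPases, with 8 of 9 negative, and 0.0040 over all tested genes.

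Benzene against air in sham-operated mice called 0 of 40 genes, among 0.0221% of all tested genes (0.00737% higher, 0.0147% lower); 6 had an unadjusted p below 0.05, DESeq2 called 2, Stat2 and Irf9, higher, and limma-voom 1, Tgtp2. This comparison shares the Sham/Air libraries with the first one and the Sham/Benzene libraries with the second. Stat2 ran from 13.6 through 20.3 to 23.1 CPM in Sham/Air and from 23.7 through 28.3 to 39.1 CPM in Sham/Benzene, and Irf9 from 17.3 through 21.4 to 24.2 and from 24.5 through 27.1 to 30.4 CPM. Both had every Sham/Benzene library above every Sham/Air library, as 0.162% of all tested genes did, yet neither passed: Stat2 was at 0.54 ± 0.12 (adjusted p = 0.148) and Irf9 at 0.38 ± 0.09 (adjusted p = 0.159). The next by p were Igtp (0.29 ± 0.09, adjusted p = 0.586), Oas2 (0.51 ± 0.20, adjusted p = 0.763) and Tgtp2 (0.32 ± 0.14, adjusted p = 0.819). For Oas2 the highest Sham/Benzene library, replicate 3 at 29.4 CPM, stood far above the next at 15.2 CPM.

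Benzene against air after TAC called 1 of 40 genes, among 0.582% of all tested genes. Tgtp2 ran from 15.3 through 17.0 to 18.3 CPM in TAC/Air and from 9.80 through 10.5 to 11.3 CPM in TAC/Benzene, without overlap, and fell by 0.68 ± 0.13 on the log2 scale (adjusted p = 0.0119). Iigp1, from 57.8 through 64.2 to 82.9 CPM and from 38.8 through 43.3 to 56.4 CPM, and Irgm1, from 29.6 through 31.2 to 38.3 CPM and from 23.8 through 26.7 to 29.2 CPM, did not overlap either (1.21% of all tested genes lay below in this way and 1.5% above). Neither passed, with Iigp1 at -0.60 ± 0.20 (adjusted p = 0.337) and Irgm1 at -0.30 ± 0.09 (adjusted p = 0.229). Igtp (-0.25 ± 0.09, adjusted p = 0.440) and Irgm2 (-0.25 ± 0.09, adjusted p = 0.358) did not pass. These values are from edgeR; limma-voom called Iigp1 (adjusted p = 0.00088), Irgm2 (0.0066) and Irgm1 (0.0116) lower, DESeq2 called Irgm1 (0.0489), and the fit with GC and length offsets called Iigp1, Irgm1 and Irgm2, while these 3 fits called 4.1%, 1.26% and 1.71% of all tested genes. The median was -0.25 over the GTPases and -0.175 over the type I style genes, of which 26 of 31 were negative and 0 passed; 4 of these had an unadjusted p below 0.05, DESeq2 called none of them, and limma-voom called Oasl2 and Rtp4.

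**Figure D4:**
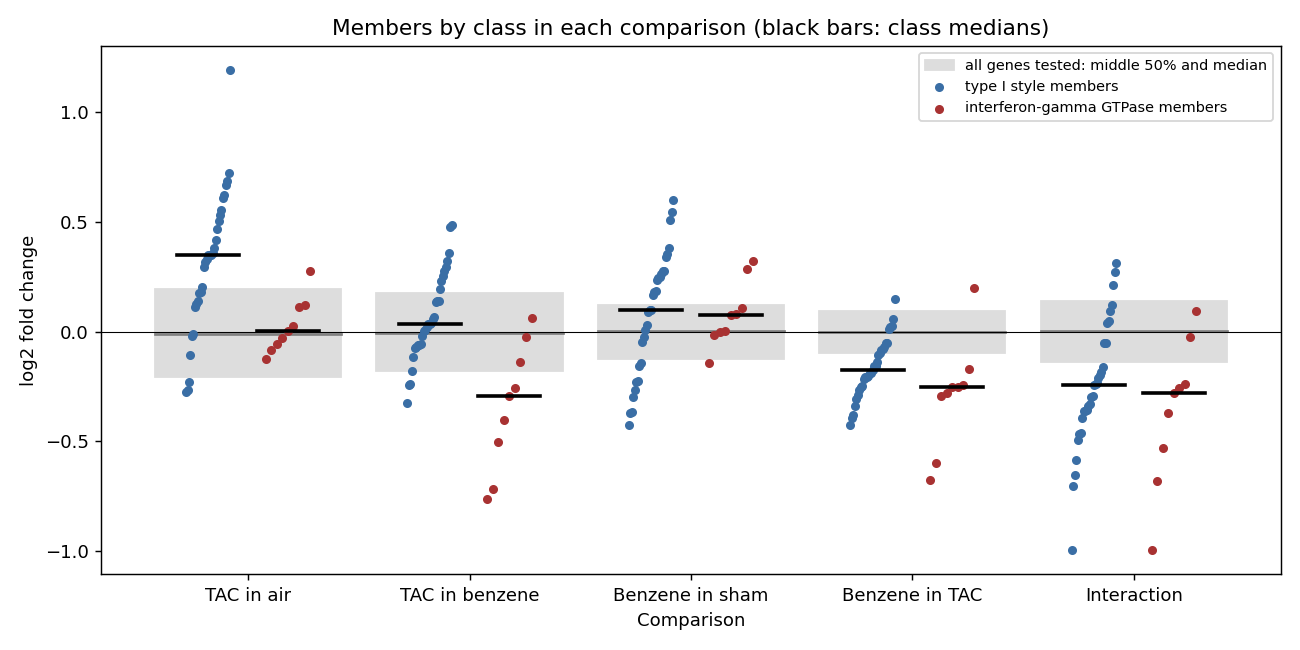
Log2 fold change (y axis) of each tested type I style gene (blue) and GTPase gene (red) in 5 comparisons (x axis), with class medians (black bars) and the middle 50% and median of all tested genes (grey). The type I style median lies above the grey band for TAC in air, and the GTPase median lies below it for TAC in benzene; both lie below it for benzene in TAC and the interaction. TAC in air and TAC in benzene share no library with each other, nor do benzene in sham and benzene in TAC; the other pairs share libraries.

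Averaged over air and benzene, TAC raised 9 type I style genes and lowered 3 GTPases, while 27.3% of all tested genes were called, 14% higher and 13.3% lower. The rises were Oasl2 (0.34, adjusted p = 0.00255), Zbp1 (0.59), Irf7 (0.47), Oas1a (0.41), Dhx58 (0.47), Ifit3 (0.42, adjusted p = 0.0171), Ifi44 (0.39), Ifitm3 (0.31) and Ifit2 (0.34, adjusted p = 0.0471). Ifit2 and Ifit3, members of a family that binds foreign RNA and blocks translation, were not called in air or in benzene alone. The falls were Igtp (-0.24, adjusted p = 0.00566), Iigp1 (-0.42, adjusted p = 0.0261) and Gbp3 (-0.27, adjusted p = 0.0495). All 3 were called in benzene and not in air, where the GTPase median was 0.00044 against -0.29 in benzene. The rises other than Ifit2 and Ifit3 were called in air and not in benzene. With 1 library left out, Ifit2 lost its call in 20 of 24 fits (adjusted p up to 0.0845) and Gbp3 in 16 (up to 0.0792). Without Sham/Air replicate 1, Ifit2 was at 0.48 ± 0.07 (adjusted p = 4.05e-06). Averaged over surgery, benzene changed 0 of 40 genes, among 0.192% of all tested genes; 7 had an unadjusted p below 0.05, all type I style, and DESeq2 and limma-voom called 0. Those with the smallest p were Oasl2 (-0.23, adjusted p = 0.419), Oas2 (0.33, 0.534), Ifit3 (-0.31, 0.541), Stat2 (0.19, 0.575) and Zbp1 (-0.33, 0.627).

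Without Sham/Air replicate 1 more genes were called in the TAC comparisons, among the 41 and in the whole table. For TAC in air 15 of 40 passed, all higher, among 23.2% of all tested genes: the 10 named above together with Ifit1, Ifit2, Ifit3, Rtp4 and the GTPase gene Tgtp2. Ifit2 moved from 0.32 ± 0.18 to 0.60 ± 0.10 (adjusted p = 7.6e-05), Ifit3 from 0.36 ± 0.18 to 0.65 ± 0.11 (adjusted p = 4.9e-05), and Tgtp2 from 0.28 ± 0.14 to 0.43 ± 0.10 (adjusted p = 0.00231). Thus 1 GTPase gene passed in air without that library, and the GTPase median was 0.17. For TAC in benzene, which does not use that group, the SE of Iigp1 went from 0.20 to 0.14 and 9 of 40 passed among 26.8%: the 4 GTPases with Irgm1, Irf9 and Stat2 lower, and Ifit2 and Ifit3 higher. Benzene in sham again called 0 of 40. Benzene after TAC called Tgtp2 and Iigp1, among 1.71% of all tested genes, and among 0.359% the interaction called Tgtp2 (-1.15 ± 0.14, adjusted p = 7.3e-05), Irf9 (-0.55 ± 0.11), Stat2 (-0.63 ± 0.14) and Iigp1 (-0.95 ± 0.20), all negative. Of the average over exposures, Gbp3 lost its call and Mx1 and Rsad2, an antiviral enzyme known as viperin, gained one.

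The rest of the pathway was read from lists of other genes. Over all these lists 17 of 96 tested genes were called with TAC in air (17.7%) and 15 of 96 in benzene (15.6%), near the 16.2% and 16.6% of all tested genes, so the counts per list are given as a description. Transcripts of interferons themselves were hardly present: Ifnb1, Ifna1, Ifna2, Ifna4, Ifna5, Ifna11, Ifna13, Ifne, Ifnl2 and Ifnl3 had 0 counts in all 24 libraries, which allows up to 0.0113 CPM over the 264418048 counts (counting error only), and Ifng had 3 counts in all. Of the 19 ligand genes 2 were tested, and Il15, a cytokine of natural killer and T cells, fell by 0.87 ± 0.10 in air (adjusted p = 4.7e-07) and by 1.03 ± 0.10 in benzene (adjusted p = 2.1e-08), both on the log2 scale. Among 16 receptors and signal transducers, 2 were called higher and 2 lower with TAC in air, and 5 higher and 2 lower in benzene. The interferon-gamma receptor gene Ifngr1 rose from 72.9 ± 5.52 to 100.2 ± 5.66 CPM in air and from 72.9 ± 3.85 to 101 ± 4.69 CPM in benzene (adjusted p = 2.5e-05 and 1.3e-05). Ifngr2, the gene of the other receptor chain, did not rise alongside it in benzene. Its TAC/Benzene libraries spanned 186.7 to 213.7 CPM, all below the Sham/Benzene range of 215.5 to 259.6 CPM. Of all tested genes 6.31% lay below in this way, and Ifngr2 was named after its values had been seen. With air, the Ifngr2 means were 225.9 ± 52.06 CPM after sham surgery and 228.3 ± 8.77 CPM after TAC. The Sham/Air libraries ran from 120.7 through a median of 244.4 to 258.5 CPM, and the TAC/Air libraries from 211.7 through 229.3 to 237.1 CPM. The Sham/Air mean lay below its median, so the likeness of the means does not show that Ifngr2 stayed level in air.

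Among 21 tested nucleic acid sensors and adaptors 3 rose with TAC in air (8.81% of all tested genes did, and 8.67% in benzene), Sting1 (0.38 ± 0.13), Myd88 (0.36 ± 0.12) and Ikbke (0.96 ± 0.33), and Sting1 alone in benzene (0.36 ± 0.12). Of 12 other tested interferon-inducible GTPases, Ifi47 rose in air (0.62 ± 0.18, adjusted p = 0.0195), and Gbp4 (-0.64 ± 0.15, adjusted p = 0.00343) and Tgtp1 fell in benzene. Of 45 other tested interferon-stimulated genes, 6 were higher and 2 lower in air and 4 were higher in benzene. Ifi27l2a rose in both (0.87 ± 0.18 and 0.55 ± 0.18), the chemokine gene Cxcl10 rose in air (1.39 ± 0.38, adjusted p = 0.0105) and was at 0.80 ± 0.35 in benzene without passing, and Ifi205 fell in air (-1.33 ± 0.29). None of these other genes of the pathway were called for benzene in sham, benzene after TAC or the interaction, where 3, 79 and 23 of all tested genes were; unadjusted p was below 0.05 for 11, 14 and 8 of the 96 tested.

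Cell type markers moved with surgery and with some groups, beside the fall of the cardiomyocyte markers given above. The 6 fibroblast markers summed to a median of 1381 CPM in Sham/Air (1162 to 3107) and 1390 CPM in Sham/Benzene (1192 to 1569). The medians were 3001 CPM in TAC/Air (2793 to 3577) and 2894 CPM in TAC/Benzene (2669 to 3199). With TAC 3 of 6 were called higher in each exposure, as were 8.81% of all tested genes in air and 8.67% in benzene. The summed level of 10 macrophage markers was 584 to 621 CPM in Sham/Air and 517 to 656 CPM in Sham/Benzene. It was 653 to 710 CPM in TAC/Air and 562 to 598 CPM in TAC/Benzene. With TAC, 5 of 10 were called higher and 1 lower in air, and 1 higher and 2 lower in benzene. Of all tested genes 7.35% were called lower in air and 7.97% in benzene. With benzene after TAC 2 of 10 were called lower, as were 0.287% of all tested genes. The 7 neutrophil markers summed to 7.31 to 21.9 CPM over the other groups and to 43.8 to 53.4 CPM in TAC/Benzene. Ly6g was at 0 counts in TAC/Air. Of the 6 tested, 6 were called higher with TAC in benzene and 6 with benzene after TAC. Of all tested genes 8.67% and 0.295% were called higher there. With TAC in air 1 neutrophil marker was called lower. Of the 12 T and NK cell markers 2 passed the filter, and the sums overlapped in all groups, between 9.15 and 16.6 CPM. Plasmacytoid dendritic cell markers summed to at most 2.04 CPM. Lung epithelial markers summed to 6.82 to 10.5 CPM in Sham/Air and at most 2.07 CPM elsewhere. The part of any of these, the cardiomyocyte and fibroblast markers included, in the results above was not tested.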

How the data were processed

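Poly-A RNA-seq of 24 libraries, 4 groups of 6, was used; groups and replicate numbers came from the sample titles. The authors deposited whole-number read counts per gene symbol, without normalization. FastQC 0.11.9, STAR, DESeq2 and mm9 are named, per the submitters' processing notes; which program counted the reads, on which annotation and strand setting, is not given in the sources used here. No 2 columns were identical. Reads of near-identical or overlapping genes may be split or lost.

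Genes were kept by edgeR 4.0.16 (R 4.3.3) filterByExpr (min.count 10, min.total.count 15), leaving 13571 of 25229; those left out held 0.0747% of counts. TMM-scaled counts were fitted by the robust quasi-likelihood model with 1 coefficient per group over all 24 libraries. Adjusted p-values are Benjamini-Hochberg over 13571 genes, called under 0.05. SEs were derived from the fold change and F statistic. CPM used TMM-scaled library sizes, and log2 CPM a prior count of 2. The procedure was tested on simulated data.

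The 41 genes, their classes and the other gene lists were chosen with earlier results of these data known, so counts and medians of a list carry no test. In each comparison every called gene is named; where fewer than 5 were called, the genes with the smallest p were added up to 5. From each pathway list at most 4 called genes with the smallest p were to be named. Cxcl10, Ifi205, Tgtp1, Ifngr2 and the untested interferon genes were named as members of the pathway, after their values had been seen. Tmem173 and Mb21d1 were read as Sting1 and Cgas, their names in the table.

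Alternatives were DESeq2 1.42.0, fits without each library in turn, limma-voom (limma 3.58.1, sample quality weights), a fit of just the groups in question, a block for replicate number, size factors by relative log expression, and a filter at a mean of 1 CPM or none at all. Offsets for GC content and transcript length (loess, span 0.5, over genes whose mean count reached 50), with and without Sham/Air replicate 1, and leaving out Sham/Air replicate 1 with Sham/Benzene replicate 4, were chosen after seeing the data. Transcript length and GC content came from GENCODE vM21 for 98% of symbols. Promoter sequences are RefSeq's on GRCm38.p6; the counts' build is mm9, and no coordinate was carried between them. The values of 1 pathway gene are not reported here.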

Additional observations from a re-analysis of the deposited data

Results flagged for a closer look

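In 31 of 160 combinations of gene and group, 1 library stood apart from the other 5 by its gap to the next value; chance gives about 1 in 20. Of these, 21 were Sham/Air replicate 1. That library was highest of its group for Ifi44 at 8.52 CPM, Ifit2 at 72.2, Ifit3 at 46.3, Ifih1 at 48.0, Parp14 at 123.9, Rtp4 at 16.8, Eif2ak2 at 61.4 and Samd9l at 132.7 CPM among type I style genes. Among the GTPases it was highest for Gbp2 at 68.2 CPM, Gbp6 at 68.2, Gbp7 at 75.9, Irgm2 at 37.5, Tgtp2 at 23.01 and Iigp1 at 137.8 CPM. It was lowest for Oas2 at 5.40 CPM, Stat2 at 13.6, Isg15 at 0.284, Bst2 at 1.14, Ifitm3 at 33.0, Ifi27 at 6.53 and Ifi35 at 5.40 CPM. The next library was at 50.1 CPM for Samd9l, 68.0 for Iigp1, 35.2 for Gbp2 and 19.6 for Bst2.

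The other 10 were spread over 7 libraries. In Sham/Benzene, Oas2 was at 29.4 CPM and Parp14 at 68.9 CPM in replicate 3, Xaf1 at 14.4 CPM and Zbp1 at 2.85 CPM in replicate 1, and Irf1 at 48.1 CPM in replicate 4, all the highest of the group. Mx2 was highest in Sham/Air replicate 3, at 3.58 CPM. In TAC/Benzene, Irgm2 was highest in replicate 4 at 33.5 CPM and Iigp1 in replicate 6 at 56.4 CPM, while Eif2ak2 was lowest in replicate 4 at 16.1 CPM and Cmpk2 in replicate 3 at 9.43 CPM.

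For 2 genes the change with TAC differed between benzene and air by the test of the interaction. Tgtp2 was at -0.998 and Irf9 at -0.59 on the log2 scale.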

How the results depend on the processing

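The genes called or of smallest p in each comparison gave 47 values, and none of these changed direction under any alternative. Of 1576 such values under alternatives, 1409 kept their side of the threshold, 120 no longer passed and 47 newly passed. Other genes given in the text are not covered by this. For TAC in air, Ifih1 and Eif2ak2 turned positive without Sham/Air replicate 1 (0.29 and 0.12). In the order TAC in air, TAC in benzene, benzene in sham, benzene after TAC, TAC averaged, benzene averaged and interaction, 10, 4, 0, 1, 12, 0 and 2 of the 41 genes were called. With limma-voom the counts were 20, 13 (6 higher, 7 lower), 1, 6, 16, 0 and 5, while the share of all tested genes called rose from 16.2% to 27.6%, 16.6% to 33.1%, 0.582% to 4.1% and 27.3% to 42.4% for TAC in air, TAC in benzene, benzene after TAC and TAC averaged. DESeq2 gave 7 for TAC in benzene, 2 for benzene in sham, 2 for benzene after TAC and 4 for the interaction. Fits of only the groups compared gave 1 for TAC in air, 9 for TAC in benzene and 2 for benzene after TAC. Without the low-count filter the interaction gave 1. Offsets for GC content and transcript length, chosen after seeing the data, gave 16, 11 (3 higher, 8 lower), 1, 4, 20, 1 and 5, and without Sham/Air replicate 1 they gave 18, 11, 3, 5 (1 higher, 4 lower), 19, 1 and 6. Leaving out Sham/Air replicate 1 and Sham/Benzene replicate 4 gave 16, 10, 1, 2, 17, 0 and 4. The causes were not tested.

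With 1 library left out, TAC in air gave 6 to 15 calls, TAC in benzene 3 to 9, benzene after TAC 1 to 2, TAC averaged 9 to 13 and the interaction 1 to 4; benzene in sham and benzene averaged gave 0 each time. For TAC in air, 6 was without TAC/Air replicate 2 and 15 without Sham/Air replicate 1. Calls in air were lost for Dhx58 without Sham/Air 2 or 6 or TAC/Air 1, 2, 3 or 6, for Zbp1 without Sham/Air 4 or TAC/Air 1 or 5, for Oas1a without Sham/Air 3 or TAC/Air 2, for Ifitm3 without TAC/Air 1 or 2 and for Stat2 without TAC/Air 3 or 5. Mx1 lost its call without Sham/Air 3 to 6, Sham/Benzene 5, TAC/Air 2 to 6 or TAC/Benzene 3 to 5. In benzene Gbp3 lost its call without Sham/Air 3, Sham/Benzene 1, 2, 3, 5 or 6, TAC/Air 1, 3, 4 or 5 or TAC/Benzene 2 to 6, and in the interaction Irf9 without Sham/Air 2 or 4, Sham/Benzene 1, 2, 3 or 5, TAC/Air 2, 3, 4 or 6 or any TAC/Benzene library. For TAC averaged, Ifitm3 lost it without Sham/Benzene 2 or 6 or TAC/Benzene 4; Ifit2 kept it only without Sham/Air 1, Sham/Benzene 1 or 2 or TAC/Air 1, and Gbp3 only without Sham/Air 4 to 6, Sham/Benzene 4 or 5, TAC/Air 5 or 6 or TAC/Benzene 1. The highest counts for TAC in benzene, benzene after TAC and the interaction were without Sham/Air replicate 1. The GTPase median for TAC in air, near 0, ran from -0.075 to 0.17 in these fits, and that for benzene in sham from -0.02 to 0.21.

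The labels do not say what a replicate number shares across groups. Over 36 same-numbered pairs of libraries the correlation of deviations from the group means ran from -0.53 to 0.47 (median -0.049, 9 over 0.1). Over 180 differently numbered pairs it ran from -0.55 to 0.50 (median 0.019, 66 over 0.1). Same-numbered libraries were thus no more alike, which cannot settle whether the numbers pair the samples. With the replicate number as a block the interaction gave 1, with Irf9 at adjusted p = 0.133. TAC in air gave 8, without Dhx58 (0.0543) and Ifitm3 (0.0523), and TAC averaged 10, without Gbp3 (0.0560), Ifitm3 (0.0519) and Iigp1 (0.0641); no other call of a named gene changed. Depth limits Mx1 and Oas3, with at most 34 and 20 counts per library. Other genes were also shallow, such as Oasl1 at 3 to 39 counts, Mx2 at 7 to 47, Zbp1 at 7 to 57 and Dhx58 at 4 to 66.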
